A study of Mus musculus with 5 samples.

Results

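Oxidative phosphorylation subunits are the proteins of respiratory complexes I to IV, the carrier cytochrome c and the ATP synthase, called complex V. The genes were chosen by name, with earlier results of these data known. Symbols beginning Ndufa, Ndufb, Ndufc, Ndufs, Ndufv, Uqcr, Cox4i, Cox5 to Cox8 or Atp5 were taken. The Sdh genes, Cyc1, Cycs and the mitochondrial ND genes were added, and assembly factors and pseudogenes were left out. Of 19938 genes tested, 85 belonged to the group, with 37 in complex I, 4 in complex II, 9 in complex III, 1 for cytochrome c, 17 in complex IV and 17 in complex V. A gene with several rows on the array entered with its brightest row, by mean over the 5 arrays, which applied to 19 of the 85.

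The arrays held total RNA from the cartilage that covers the mandibular condyle, the knob of the jaw bone in the temporomandibular joint. There were 2 mice without the discoidin domain receptor Ddr1, a collagen-binding receptor tyrosine kinase, called knockout 2 and knockout 5 after their labels. There were 3 wild-type mice, called wild type 3, 4 and 6. All 5 mice were of strain 129/Sv, 1 array stood for each mouse, and how the knockout allele was made, the age and the sex of the mice were not used here. Levels are log2 RMA signals of the authors, and every change is knockout minus wild type on that scale. A gene passed the test when its adjusted p in limma, a linear model fitted across all genes with a moderated spread, was under 0.05 after Benjamini-Hochberg adjustment.

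Complex I takes electrons from NADH and complex II takes them from succinate. Ubiquinone carries them to complex III, and cytochrome c carries them on to complex IV, which reduces oxygen. Complexes I, III and IV pump protons across the inner mitochondrial membrane, and complex V uses the gradient to make ATP. Complex II is encoded in the nucleus throughout, while the other complexes also hold subunits encoded in mitochondrial DNA. Chondrocytes live in tissue without vessels and draw much of their ATP from glycolysis.

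Among the 85 subunits 5 fell in knockout cartilage, Ndufs3, Ndufs5 and Ndufa13 of complex I, Sdhb of complex II and Atp5j2 of complex V. A single subunit rose, Ndufab1 of complex I, and 79 did not pass the test, so 6 of 85 passed in all, where 3.73% of all genes did. The falls made up 5.88% of the subunits, where 2.18% of all genes tested fell. The rise made up 1.18%, where 1.55% of all genes tested rose. The median change was -0.062 over the subunits and -0.0083 over all genes. The subunit median lay above 0 under all 4 scalings of the arrays, between 0.010 and 0.070. That of all genes also lay above 0 under them, between 0.0097 and 0.064. With arrays centred all genes were at 0.064 and the subunits at 0.010. The subunit median was 0 without either knockout array and within each date group, as was that of all genes. All 6 calls were lost with the date group of the arrays as a block, with cyclic loess between the arrays, and without any single wild-type array.

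The promoters of 4 of the genes that fell are shown. They were chosen because each holds a motif of a factor known to act on genes of the respiratory chain. Of the 68 subunits with a promoter, 37 held letters of any of the 3 motifs searched. Whether motifs and falls go together was not tested. The factors are NRF1 (GCGCA and GCGC with any base N between them), the ETS factor GABP (CCGGAAG) and YY1 (AAGATGGC). Sequences run 5′ to 3′ from 250 bases before to 50 bases after the start of the gene, in RefSeq's GRCm38.p6 table, with motif letters in capitals. Ndufs3 lies at chr2:90904672-90904971 on the minus strand, Sdhb at chr4:140961021-140961320 on the plus strand, Ndufs5 at chr4:123718137-123718436 on the minus strand and Atp5j2 at chr5:145191492-145191791 on the minus strand. Ndufs3 and Sdhb hold GABP letters, Ndufs5 NRF1 letters and Atp5j2 YY1 letters.
Ndufs3: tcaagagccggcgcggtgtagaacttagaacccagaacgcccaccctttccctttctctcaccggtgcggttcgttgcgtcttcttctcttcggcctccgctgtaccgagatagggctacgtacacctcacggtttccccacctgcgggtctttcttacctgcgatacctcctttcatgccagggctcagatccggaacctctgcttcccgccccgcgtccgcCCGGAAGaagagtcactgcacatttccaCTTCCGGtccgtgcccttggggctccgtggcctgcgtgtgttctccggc
Sdhb: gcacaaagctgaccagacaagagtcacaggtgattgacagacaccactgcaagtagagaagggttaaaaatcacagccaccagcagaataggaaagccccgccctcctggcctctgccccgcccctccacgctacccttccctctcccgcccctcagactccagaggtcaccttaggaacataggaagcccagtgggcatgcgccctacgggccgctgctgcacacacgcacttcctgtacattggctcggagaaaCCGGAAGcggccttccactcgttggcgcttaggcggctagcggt
Ndufs5: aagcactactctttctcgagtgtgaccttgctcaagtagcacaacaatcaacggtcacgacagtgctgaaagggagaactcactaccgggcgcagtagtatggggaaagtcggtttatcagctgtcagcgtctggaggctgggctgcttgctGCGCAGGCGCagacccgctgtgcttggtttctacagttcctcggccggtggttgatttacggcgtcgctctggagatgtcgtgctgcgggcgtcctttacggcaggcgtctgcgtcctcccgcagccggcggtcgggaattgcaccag
Atp5j2: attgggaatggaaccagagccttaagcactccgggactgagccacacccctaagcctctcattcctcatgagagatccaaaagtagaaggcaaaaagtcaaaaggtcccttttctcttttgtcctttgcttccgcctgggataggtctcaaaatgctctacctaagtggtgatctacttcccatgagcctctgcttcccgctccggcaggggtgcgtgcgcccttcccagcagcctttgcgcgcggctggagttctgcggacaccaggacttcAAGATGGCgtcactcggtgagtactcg

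Promoters were found for 68 of the 85 subunits. NRF1 letters were in 16 of them, 23.5%, against 7.17% of the 17491 protein-coding genes with a promoter in the table. GABP letters were in 17, 25% against 12.9%, and YY1 letters in 10, 14.7% against 3.57%. Both strands were searched, and a gene counts once. The promoters of Ndufa13, which fell, and of Ndufab1, which rose, held none of the 3 motifs. The median change was -0.28 for subunits with GABP letters and -0.023 for those without, with median wild-type signals of 5.86 and 5.53. For NRF1 letters it was -0.22 with and -0.082 without, with median wild-type signals of 5.66 and 5.59. For YY1 letters it was -0.15 with and -0.043 without, with signals of 5.72 and 5.59. The motif letters were chosen after their matches were seen, so the shares are not those of motifs fixed in advance. These are descriptions of the letters in a window and were not tested.

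Ddr1 itself was at 5.96 on knockout 2 and 5.80 on knockout 5, against 6.02 on each wild-type array, a change of -0.14 (limma's adjusted p = 0.377). The array covers the whole transcript and probe positions were not used here, so this value is no check of the labels. Of the genes that define cartilage, Col2a1 was at 7.07 and 6.96 on the knockout arrays, against 7.27 on each wild-type array, and Acan at 4.81 and 5.92 on the knockout arrays, against 5.40 on each wild-type array. The standard deviation of gene values was 0.802 on knockout 2 and 0.906 on knockout 5, against 0.991 to 1.02 on the wild-type arrays. The date in the array names puts knockout 2 and wild type 3 in date group 1 and the other 3 arrays in date group 2. All values come from bulk tissue, where fewer cells of a type and less RNA per cell cannot be told apart.

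RMA's median polish can return the same value for several arrays, so equal values do not show equal expression. The 3 wild-type values were identical for 32 of the 85 subunits, 37.6%, and for 39.1% of all genes. The 5 subunits Ndufa10, Ndufs1, Uqcr10, Cox6a2 and Atp5o had the same value on all 5 arrays. For a gene with identical wild-type values the standard error comes from the knockout arrays and from limma's moderation, and does not measure the spread between wild-type mice.

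**Figure D1:**
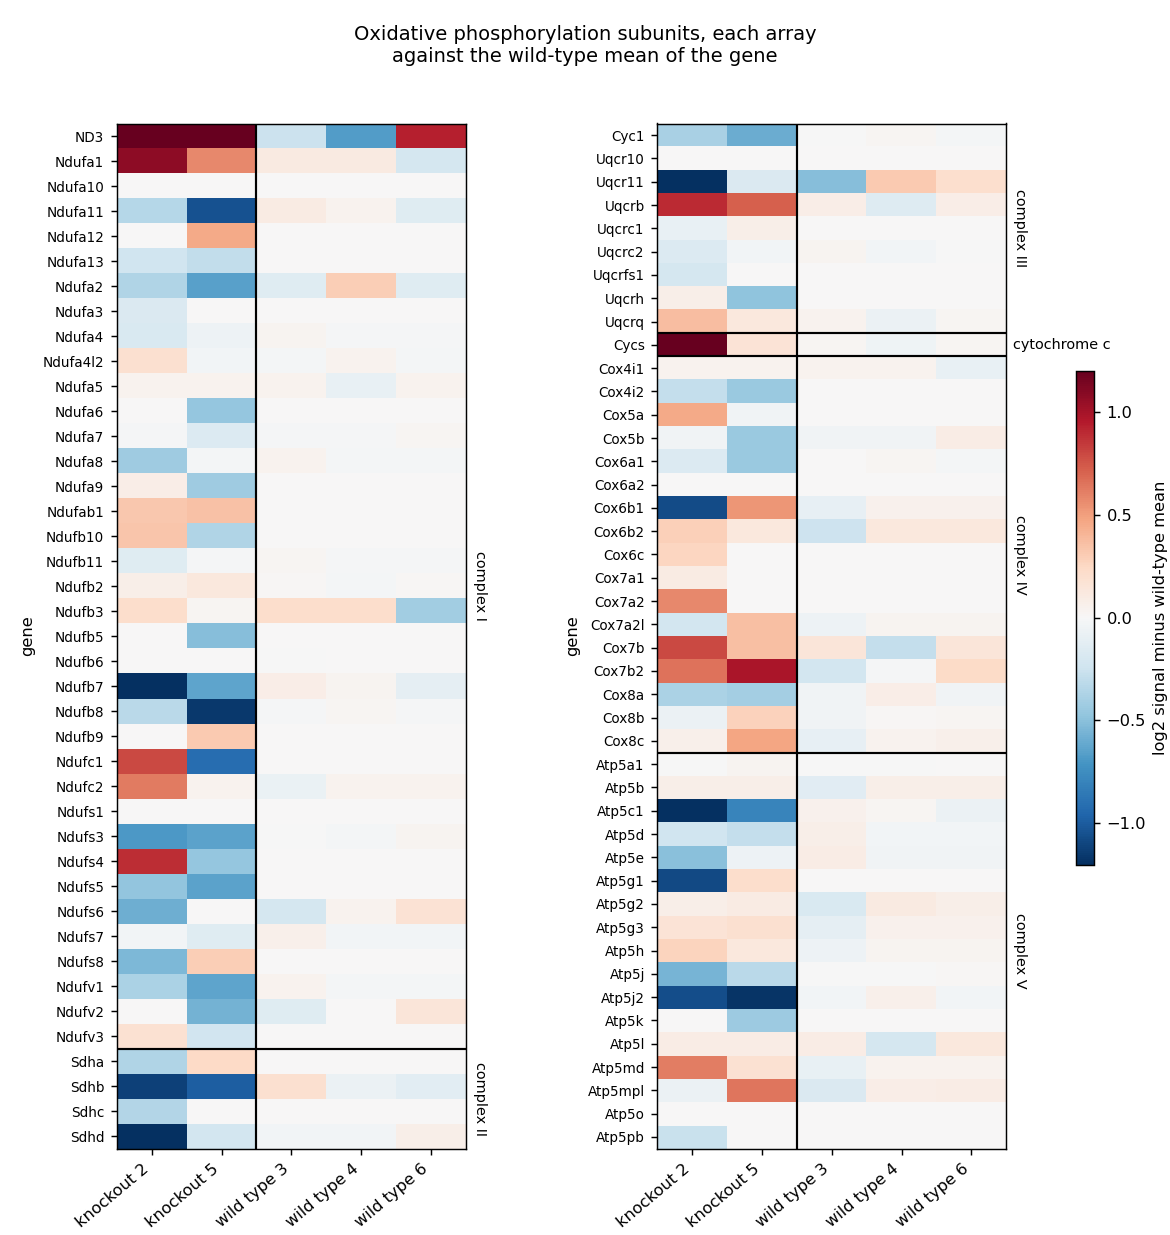
Log2 signal of each of the 85 subunits on each array minus the wild-type mean of that gene, with knockout arrays left of the black line and wild-type arrays right of it; colours stop at -1.2 and 1.2, and larger differences share the darkest colour. Sdhb, Atp5j2, Atp5c1 and Ndufb7 are blue on both knockout arrays, while Ndufc1, Ndufs4, Cox6b1 and Atp5g1 have opposite colours on them.

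Complex I, the NADH dehydrogenase, held 4 of the 6 calls and 37 of the 85 subunits. Its 3 falls were 8.11% of its subunits, where 2.18% of all genes tested fell. Its 1 rise was 2.7%, where 1.55% of all genes tested rose. Ndufs3, a core subunit of the arm that hands electrons to ubiquinone, was at 5.18 on knockout 2 and 5.22 on knockout 5, against 5.85, 5.83 and 5.89 on wild types 3, 4 and 6. Both knockout values lay below every wild-type value. That is a change of -0.66 (SE 0.031, limma's adjusted p = 0.0157), or 1.58-fold lower, and a second row of Ndufs3 gave -0.65. It was -0.68 within date group 1 and -0.64 within date group 2.

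Ndufs5, an accessory subunit on the intermembrane side, was at 5.21 on knockout 2 and 5.04 on knockout 5, against 5.68 on each wild-type array. It fell by 0.56 on the log2 scale (SE 0.06, limma's adjusted p = 0.0409), and the knockout values lay below the wild-type value. Ndufa13, an accessory subunit also known as GRIM-19 for its part in cell death, was at 5.49 on knockout 2 and 5.43 on knockout 5, against 5.73 on each wild-type array. Its change was -0.27 (SE 0.025, limma's adjusted p = 0.0336), and it shrank to -0.13 with cyclic loess and to -0.12 once arrays were centred and scaled.

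Ndufab1, the mitochondrial acyl carrier protein, is a complex I subunit that also serves fatty acid synthesis and iron-sulfur cluster assembly. It was at 5.77 on knockout 2 and 5.80 on knockout 5, against 5.45 on each wild-type array. Both knockout values lay above the wild-type value, with a change of 0.34 (SE 0.018, limma's adjusted p = 0.0174). A second row of the gene gave 0.37.

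The other complex I subunits did not pass the test. Ndufv1, which binds NADH, was at 4.63 and 4.37 on the knockout arrays, against 5.05, 4.98 and 4.98 on the wild-type arrays, a change of -0.51 (limma's adjusted p = 0.0883). Ndufb7, an accessory subunit, had the largest negative change of the complex, -1.04 (limma's adjusted p = 0.183), with 4.94 on knockout 2 and 5.75 on knockout 5 against 6.46, 6.41 and 6.27 on the wild-type arrays. Its knockout values differed by more than its wild-type values did. Ndufa1, an accessory subunit of the membrane arm encoded on the X chromosome, was at 5.63 and 5.14 on the knockout arrays, against 4.66, 4.66 and 4.35 on the wild-type arrays, a change of 0.83 (limma's adjusted p = 0.157).

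ND3, the subunit of complex I in this group that mitochondrial DNA encodes, was at 8.64 on knockout 2 and 9.55 on knockout 5. In wild types 3, 4 and 6 it was at 7.13, 6.72 and 8.32, a spread of 0.831 (SD, n = 3). Its change of 1.70 was the largest of the 85 and did not pass the test (limma's adjusted p = 0.31), and a second row gave 1.48. The groups did not overlap, with knockout 2 at 8.64 against wild type 6 at 8.32.

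Core and accessory subunits of complex I were taken apart by textbook role. Of 7 core subunits measured, Ndufs1, Ndufs3, Ndufs7, Ndufs8, Ndufv1, Ndufv2 and ND3, 1 fell and none rose, with a median change of -0.13. Of the 30 others, 2 fell and 1 rose, with a median of -0.07. Over all genes tested 2.18% fell and 1.55% rose. Ndufa4, kept here by its name although it is now placed in complex IV, was at 5.03 and 5.15 on the knockout arrays, against 5.24, 5.20 and 5.20 on the wild-type arrays.

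The knockout mice lay on opposite sides of wild type in 7 of the 37 complex I subunits, 18.9%, where 13.9% of all genes did. In 6 of its subunits knockout 2 lay above and knockout 5 below every wild-type value, as in 960 of 19938 genes tested. In 1 the reverse held, as in 1811 of the genes tested. These splits were not tested. Ndufc1, a small membrane subunit, was at 6.31 on knockout 2 and 4.60 on knockout 5, against 5.52 on each wild-type array. A second row of Ndufc1 did not split the knockout mice, with 4.90 on knockout 2 and 4.97 on knockout 5, against 5.12, 5.38 and 5.12 on the wild-type arrays. Ndufs4, an accessory subunit whose loss causes Leigh syndrome, was at 4.79 on knockout 2 and 3.44 on knockout 5, against 3.90 on each wild-type array. In the rows tested, the changes of Ndufc1 and Ndufs4 were -0.063 and 0.21, between knockout mice that lay 1.71 and 1.35 apart on the log2 scale.

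**Figure D2:**
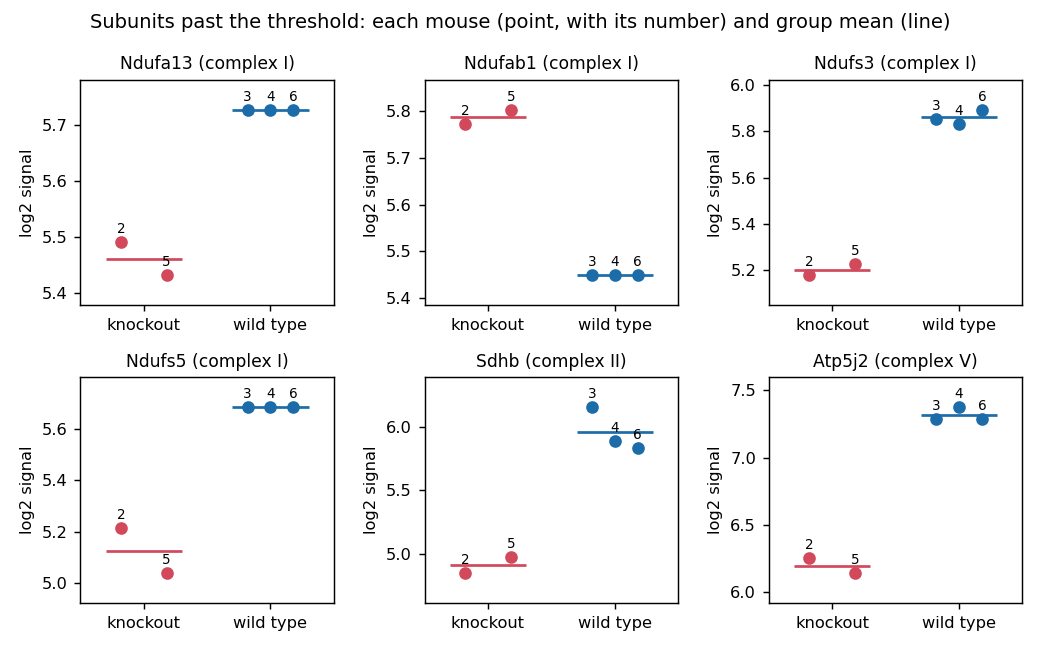
Log2 signal of the 6 subunits past the threshold in each mouse (points with mouse numbers), knockout left and wild type right, with group means as lines; the vertical axes differ and do not start at 0. In every panel the knockout values lie on one side of all wild-type values, and wild-type values are identical for Ndufa13, Ndufab1 and Ndufs5.

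Complex II, the succinate dehydrogenase that also belongs to the citric acid cycle, held 1 fall among 4 subunits, where 2.18% of all genes fell. Sdhb, its iron-sulfur subunit, was at 4.85 on knockout 2 and 4.98 on knockout 5, against 6.16, 5.89 and 5.84 on wild types 3, 4 and 6. Both knockout mice lay below every wild-type mouse. That is a change of -1.05 (SE 0.125, limma's adjusted p = 0.0465), or 2.07-fold lower, with -1.31 within date group 1 and -0.89 within date group 2. The adjusted p was 0.0621 without knockout 2 and 0.0572 with trended and robust variances.

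The membrane anchors and the flavoprotein of complex II did not pass the test. Sdhd, a membrane anchor, was at 5.04 on knockout 2 and 6.04 on knockout 5, against 6.23, 6.23 and 6.33 on the wild-type arrays, a change of -0.72 (limma's adjusted p = 0.399). Sdhc, the other anchor, was at 5.59 on knockout 2, and at 5.94 on knockout 5 and on each wild-type array. Sdha, the flavoprotein that oxidises succinate, was at 5.44 on knockout 2 and 6.05 on knockout 5, on either side of the 5.81 of each wild-type array. All 4 genes had their lowest value on knockout 2, where 9961 of 19938 genes tested lay below their wild-type mean. The median change of the complex was -0.74 on knockout 2 and -0.11 on knockout 5, and that of all genes was 0 on both. All 4 were in the brightest of 4 groups by wild-type signal. In that group the median change of all genes was -0.25, and 40.6% had both knockout values below wild type.

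Complex III, the cytochrome bc1 complex, held no call among 9 subunits. It had 2 at an unadjusted p under 0.05 in limma, where 3637 of 19938 genes tested were. Uqcrb, a subunit that helps bind ubiquinone, was at 4.78 and 4.60 on the knockout arrays, against 3.95, 3.72 and 3.95 on the wild-type arrays, a change of 0.81 (limma's adjusted p = 0.0567). Its other rows gave 0.31 and 1.00, so all 3 were higher in knockout. Uqcrb was in the dimmest of 4 groups by wild-type signal. In that group the median change of all genes was 0.25, and 34.2% had both knockout values above wild type. Cyc1, the cytochrome c1 of the complex, was at 5.97 and 5.76 on the knockout arrays, against 6.36, 6.38 and 6.34 on the wild-type arrays, a change of -0.50 (limma's adjusted p = 0.0643).

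Other subunits of complex III did not pass the test. Uqcrq had 4.46 and 4.22 on the knockout arrays, against 4.13, 4.02 and 4.11 on the wild-type arrays. Uqcrc2, a core protein, had 4.97 and 5.10 on the knockout arrays, against 5.17, 5.10 and 5.13 on the wild-type arrays. Uqcr11, the smallest subunit, was at 5.58 on knockout 2 and 6.71 on knockout 5, against 6.37, 7.19 and 7.08 on the wild-type arrays, so that knockout 5 lay within the wild-type range. In a second row of Uqcr11 both lay below wild type, with 5.82 on knockout 2 and 5.42 on knockout 5, against 5.87, 5.88 and 5.90 on the wild-type arrays.

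Cytochrome c, encoded by Cycs, carries electrons between complexes III and IV and triggers apoptosis when released. Cycs was at 5.66 on knockout 2 and 4.62 on knockout 5, against 4.48, 4.40 and 4.48 on the wild-type arrays. That is a change of 0.69 (SE 0.354, limma's adjusted p = 0.399), larger on knockout 2 (1.21) than on knockout 5 (0.165). Its other rows had changes of 0.44 and 0.032, and in the row of 0.032 knockout 2 at 4.96 lay above and knockout 5 at 2.36 below the wild-type values of 3.69, 3.51 and 3.69.

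Complex IV, the cytochrome c oxidase, held no call among 17 nuclear-encoded subunits. It had 4 at an unadjusted p under 0.05 in limma, where 3637 of 19938 genes tested were. Its median change was 0.069, and 11 of 17 subunits had a change above 0. Several of its subunits exist as isoforms of different tissues. Cox8a, the form found in most tissues, was at 6.26 and 6.23 on the knockout arrays, against 6.60, 6.72 and 6.60 on the wild-type arrays, a change of -0.40 (SE 0.051, limma's adjusted p = 0.0522). The muscle form Cox8b was at 4.85 and 5.20 on the knockout arrays, against 4.89, 4.94 and 4.95 on the wild-type arrays, and the testis form Cox8c at 5.49 and 5.90 on the knockout arrays, against 5.32, 5.47 and 5.49 on the wild-type arrays.

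Cox4i1, the general form of subunit IV, was at 5.91 on both knockout arrays, against 5.91, 5.91 and 5.77 on the wild-type arrays. Cox4i2, the form known for lung and for induction by low oxygen, was at 5.92 and 5.76 on the knockout arrays, against 6.21 on each wild-type array, a change of -0.36 (limma's adjusted p = 0.0657). The groups overlapped for Cox4i1 and did not for Cox4i2.

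Cox6a1, the general form of subunit VIa, was at 5.30 and 5.01 on the knockout arrays, against 5.46, 5.49 and 5.43 on the wild-type arrays, a change of -0.31 (limma's adjusted p = 0.248). The heart and muscle form Cox6a2 had 6.68 on all 5 arrays. Cox7a1, the muscle form of subunit VIIa, was at 4.73 and 4.63 on the knockout arrays, against 4.63 on each wild-type array. The general form Cox7a2 was at 5.44 on knockout 2, and at 4.87 on knockout 5 and on each wild-type array.

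Cox6b1, a subunit on the side where cytochrome c docks, had the widest gap between knockout mice in complex IV, at 4.92 on knockout 2 and 6.53 on knockout 5, against 5.90, 6.04 and 6.04 on the wild-type arrays. Its testis form Cox6b2 was at 6.07 and 5.92 on the knockout arrays, against 5.54, 5.92 and 5.92 on the wild-type arrays. Cox7b2, another testis form, was at 3.38 and 3.71 on the knockout arrays, against 2.51, 2.72 and 2.97 on the wild-type arrays, a change of 0.81 (limma's adjusted p = 0.142). Without detection calls, these signals do not show that a testis form was expressed.

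**Figure D3:**
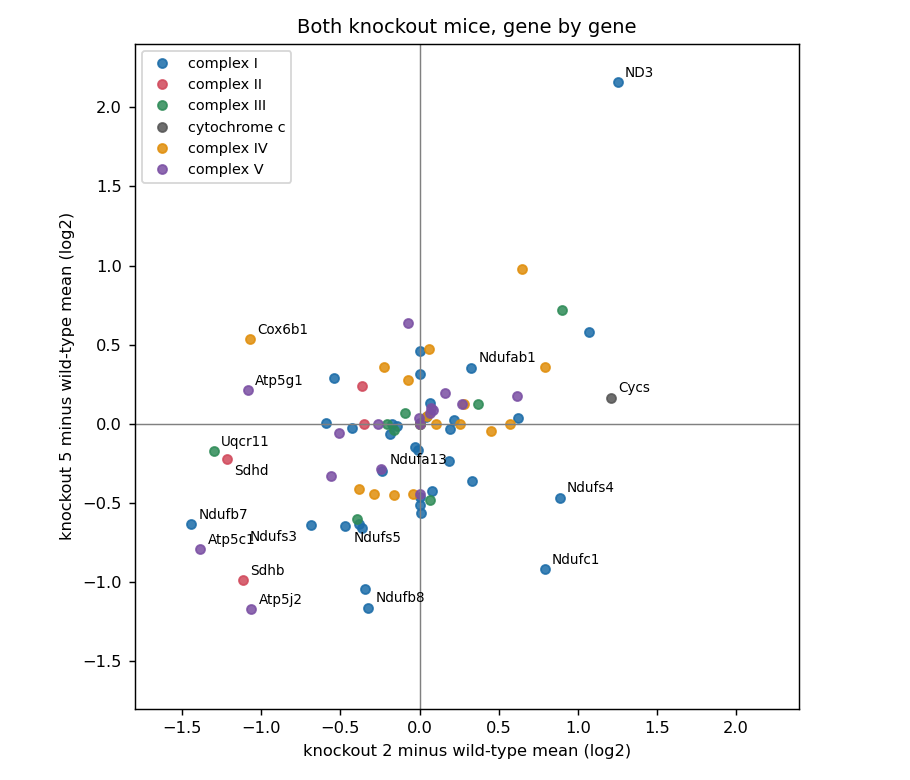
Each point is 1 of the 85 subunits, with knockout 2 minus the wild-type mean on the horizontal axis and knockout 5 minus the wild-type mean on the vertical axis, in log2 units and coloured by complex. Sdhb and Atp5j2 lie near -1 on both axes, while Cox6b1 and Atp5g1 are negative on knockout 2 and positive on knockout 5, and Ndufc1 and Ndufs4 the reverse.

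Complex V, the ATP synthase, held 1 fall among 17 subunits and no rise, where 2.18% of all genes fell and 1.55% rose. Atp5j2, subunit f of the membrane part, was at 6.25 on knockout 2 and 6.14 on knockout 5, against 7.29, 7.38 and 7.29 on wild types 3, 4 and 6. Its change of -1.12 was the largest negative one of the 85 (SE 0.053, limma's adjusted p = 0.0157), which is 2.17-fold lower. It was -1.03 within date group 1 and -1.19 within date group 2, and -0.85 with cyclic loess.

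None of the 5 subunits of the catalytic head and central stalk of complex V passed the test in limma. Of the 5, 2 had an unadjusted p under 0.05, where 3637 of 19938 genes tested did. Atp5c1, the gamma subunit that turns inside the head, was at 5.82 on knockout 2 and 6.41 on knockout 5, against 7.25, 7.23 and 7.13 on the wild-type arrays, a change of -1.09 (SE 0.206, limma's adjusted p = 0.0975). Atp5d, the delta subunit of the central stalk, was at 5.81 and 5.76 on the knockout arrays, against 6.12, 6.01 and 6.01 on the wild-type arrays, a change of -0.26 (limma's adjusted p = 0.0912). The alpha and beta subunits, which carry the nucleotide sites, differed by less, with 5.93 and 5.97 on the knockout arrays, against 5.93, 5.93 and 5.94 on the wild-type arrays for Atp5a1, and with 6.44 on both knockout arrays against 6.23, 6.44 and 6.44 on the wild-type arrays for Atp5b. All 5 were in the brightest of 4 signal groups, and 3 of them had both knockout values below wild type, where 40.6% of all genes in that group did.

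The stalk and ring subunits of complex V did not pass the test, apart from Atp5j2. Atp5j, coupling factor 6 of the peripheral stalk, was at 5.06 and 5.30 on the knockout arrays, against 5.62, 5.62 and 5.64 on the wild-type arrays, a change of -0.44 (limma's adjusted p = 0.0907). The c subunit of the proton-driven ring has 3 genes that encode the same mature protein. Atp5g1 was at 4.69 on knockout 2 and 5.99 on knockout 5, on either side of 5.78 on each wild-type array. Atp5g2 was at 6.32 and 6.34 on the knockout arrays, against 6.06, 6.35 and 6.32 on the wild-type arrays. Atp5g3 was at 4.95 and 4.99 on the knockout arrays, against 4.69, 4.85 and 4.85 on the wild-type arrays. Atp5mpl, a small subunit of the membrane part, was at 6.99 and 7.70 on the knockout arrays, against 6.89, 7.14 and 7.15 on the wild-type arrays, so that knockout 2 lay within the wild-type range.

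Taken over the 85 subunits, both knockout values lay below all wild-type values in 21, 24.7%, where 18.6% of all genes did. Both lay above in 12, 14.1%, where 13% of all genes did. The knockout mice lay on opposite sides of all wild-type values in 15, 17.6%, where 13.9% of all genes did. The shares lay near those of all genes, and no test was made of the difference.

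The median change was -0.086 in complex I, -0.45 in complex II, -0.10 in complex III, 0.069 in complex IV and 0 in complex V. These medians moved with the scaling of the arrays. For complex I it was 0.04 and for complex III 0.085 with arrays centred and scaled, while complex II stayed between -0.37 and -0.28 under the 4 scalings tried. For complex IV it was 0.14 to 0.26 under them, where that of all genes was 0.0097 to 0.064. Within date group 1 the medians of complexes I to V were 0, -0.77, -0.089, 0 and 0, and within date group 2 they were -0.10, -0.12, 0, 0 and 0.

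Changes across the whole table moved with signal, so all genes were divided by wild-type signal into 4 groups of equal size. Of the 85 subunits, 40 were in the brightest group. In that group the median change was -0.15 for subunits and -0.25 for all genes, and 13 of 40 subunits, 32.5%, had both knockout values below wild type, where 40.6% of all genes did. Falls past the threshold were 3 of these 40, 7.5%, where 5.2% of all genes fell. In the dimmest group, with 12 subunits, the median change was 0.23 for subunits and 0.25 for all genes. All 6 subunits past the threshold were in the brighter 2 of the 4 groups.

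**Figure D4:**
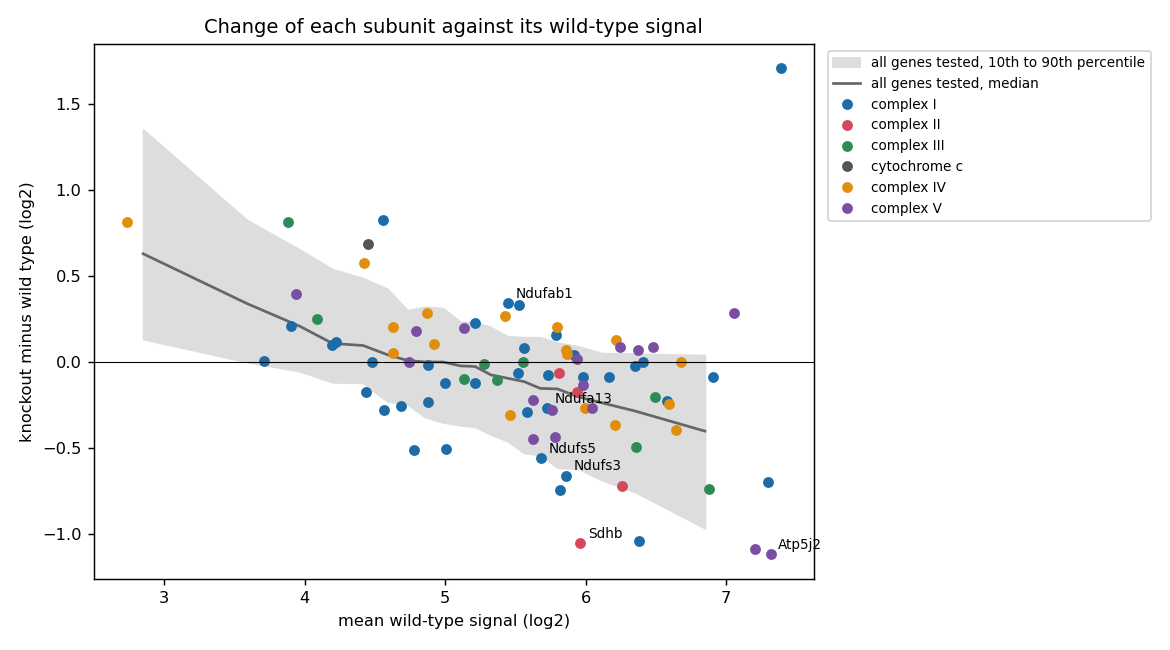
Knockout minus wild-type change (log2) of each subunit against its mean wild-type signal (log2), coloured by complex, over the median and the 10th to 90th percentile of all genes tested in 20 bins of equal number. The line for all genes falls as signal rises, with Sdhb and Ndufs3 below the grey band, Ndufs5 at its lower edge, Ndufa13 inside it, Ndufab1 above it and Atp5j2 beyond its bright end.

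Genes that assemble the complexes were given from a list of 47 factors, of which 42 were measured, with 2 rises and 3 falls. That is 4.76% rising and 7.14% falling, where 1.55% and 2.18% of all genes tested did, and the difference was not tested. Ndufaf1, an assembly factor of complex I, was at 4.72 and 4.70 on the knockout arrays, against 5.47, 5.68 and 5.47 on the wild-type arrays, a change of -0.83 (SE 0.086, limma's adjusted p = 0.0377). Cox11, which delivers copper to complex IV, was at 4.66 and 4.36 on the knockout arrays, against 5.43, 5.43 and 5.44 on the wild-type arrays, a change of -0.92 (SE 0.1, limma's adjusted p = 0.0411). Acad9, an assembly factor of complex I, was at 5.50 and 5.49 on the knockout arrays, against 5.69 on each wild-type array. Its change was -0.19 (limma's adjusted p = 0.0272).

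The rises among assembly factors were those of Sdhaf2 and Lyrm7. Both genes were in the dimmest of the 4 signal groups, where 4.31% of all genes tested rose. Sdhaf2, which puts the flavin on Sdha, was at 4.06 and 4.10 on the knockout arrays, against 3.67 on each wild-type array, a change of 0.41 (limma's adjusted p = 0.016). Lyrm7, which serves the iron-sulfur protein of complex III, was at 4.29 and 4.31 on the knockout arrays, against 3.93 on each wild-type array, a change of 0.37 (limma's adjusted p = 0.016). The median change of the list was -0.035, and it lay above 0 under each of the 4 scalings, between 0.037 and 0.089. That of all genes lay between 0.0097 and 0.064 under them.

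Regulators of mitochondrial DNA and biogenesis held 3 falls among 20 measured genes, 15%, where 2.18% of all genes tested fell, and the difference was not tested. The median change was -0.044. It was -0.071 with quantile normalisation, -0.078 with cyclic loess, 0.028 with arrays centred and -0.072 with arrays centred and scaled. Nrf1, the factor whose motif was searched above, was at 4.44 and 4.57 on the knockout arrays, against 5.04, 5.10 and 5.04 on the wild-type arrays, a change of -0.56 (SE 0.054, limma's adjusted p = 0.0341). Twnk, the helicase of mitochondrial DNA, was at 4.56 and 4.65 on the knockout arrays, against 5.03 on each wild-type array, a change of -0.42 (limma's adjusted p = 0.026). Esrra, a nuclear receptor that acts on respiratory genes, was at 5.81 and 5.76 on the knockout arrays, against 6.11, 6.15 and 6.07 on the wild-type arrays, a change of -0.33 (limma's adjusted p = 0.0423). The citric acid cycle and pyruvate dehydrogenase list held no call in limma among 23 measured genes, with a median of -0.13. Of the 23, 3 had an unadjusted p under 0.05, where 3637 of 19938 genes tested did. No gene of these 3 lists passed the test with cyclic loess or with the date group as a block.

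Markers of chondrocytes and of other cells were read beside these values. The mean log2 signal of 16 skeletal muscle genes was 5.40 on knockout 2 and 5.55 on knockout 5, against 5.73 to 5.82 on the wild-type arrays. That of 14 chondrocyte genes was 5.64 and 5.96 on the knockout arrays, against 6.06 to 6.09 on the wild-type arrays. Of the 14, 13 had a change below 0, where 10196 of 19938 genes tested did. For 11 adipocyte genes it was 5.10 and 5.24 on the knockout arrays, against 5.29 to 5.31 on the wild-type arrays. For 10 osteoclast genes it was 4.72 and 5.09 on the knockout arrays, against 4.97 to 5.03 on the wild-type arrays, and for 9 erythroid and marrow genes 5.69 and 5.58 on the knockout arrays, against 5.51 to 5.56 on the wild-type arrays. Falls past the threshold were 1 muscle gene, Pygm (6.25%), 3 chondrocyte genes, Sox9, Comp and Col9a3 (21.4%), and 1 adipocyte gene, Cidec (9.09%). Over all genes tested 2.18% fell, and in the brightest of the 4 signal groups 5.2% did. No marker rose, a log2 signal has no level that marks an absent transcript, and the part of these markers in the subunit values was not tested.

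**Figure D5:**
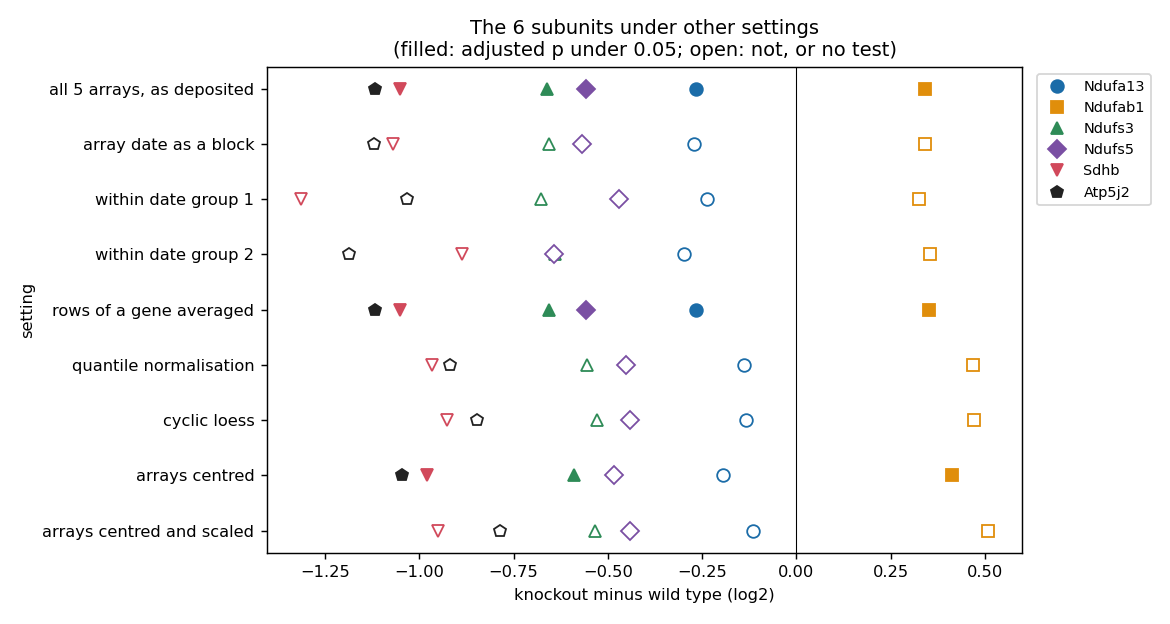
Change (log2, knockout minus wild type) of the 6 subunits past the threshold, with settings from top to bottom, filled where the adjusted p is under 0.05 and open where it is not or where no test was made. Each gene keeps its side of 0 in every setting shown, and no symbol is filled with the date group as a block, quantile normalisation, cyclic loess or centring and scaling of the arrays.

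The 6 subunits past the threshold kept their direction in every setting tried, while their calls did not hold in all of them. With the date group as a block 23 of the 85 subunits had an unadjusted p under 0.05 in limma, where 3829 of 19938 genes did. The adjusted p values of the 6 then ran from 0.0528 for Ndufs3 to 0.0997 for Sdhb. With cyclic loess they ran from 0.0578 for Ndufs3 to 0.395 for Ndufa13. Without wild type 3, 4 or 6 the lowest adjusted p among the 6 was 0.112, 0.13 and 0.179. Without knockout 2, 24 subunits fell and 11 rose, where 18.1% and 19.6% of all genes did, and without knockout 5, 27 fell and 17 rose, where 30.4% and 19.7% of all genes did. In those fits the spread comes from wild type alone, where 32 of the 85 subunits have no spread.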

How the data were processed

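The table deposited by the authors holds log2 values for 35556 rows and 5 arrays of total RNA. Per the submitters' processing notes these were made with Affymetrix Expression Console and RMA, with versions not given in the sources used here. Rows were named from the platform annotation, where 21789 had 1 symbol, 1621 had several and 12146 none, and rows with several or none were left out. All 85 subunits carried the same symbol in RefSeq's GRCm38.p6 gene table. Rows with several symbols, 7 of which include a subunit name, were not analysed here.

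The 2 knockout and 3 wild-type arrays were set against each other in R 4.3.3 with limma 3.58.1. The fit used lmFit and eBayes, two-sided, with no filter, Benjamini-Hochberg over 19938 genes and a threshold of 0.05. P-values measure the spread between mice and arrays together, where values differ, and 5 arrays limit the precision. Gene lists, complexes and promoter motifs come from textbook knowledge. Members and lists were chosen with earlier results of these data known, and motif letters after their matches were seen. Named genes are those past the threshold, the 4 of lowest p, the brightest and the widest between knockout mice in each complex, the Sdh genes, Cycs, isoform sets and listed pathway genes past the threshold. Ndufv1, Ndufb7, Ndufa1, Ndufa4, Ndufs4, Atp5a1, Atp5b, Atp5l, Cox5a, Cox7a2l, Ndufa2, Col2a1, Acan and the genes with 1 value on all arrays were named after their values were seen. Alternatives covered the date group, dim genes, rows, variance, scaling, threshold and each array left out. A median counts as moved past the pooled SD of the array means.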

Additional observations from a re-analysis of the deposited data

How the results depend on the processing

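No paired analysis was possible because the groups share no replicate number. In limma 0 genes passed, in either direction, with the date group as a block, with array weights (which did not converge), with quantile normalisation, with cyclic loess and without any single wild-type array. In that order 23, 5, 19, 23 and 15 to 16 of the 85 subunits had an unadjusted p under 0.05. Of the 19938 genes tested 3829, 1917, 3761, 3919 and 2312 to 2458 did. Over all genes 104 rose without the dimmest 25% of genes, 55 without the dimmest 50%, 90 (68 lower) with arrays centred and scaled, and 654 (976 lower) at an adjusted p under 0.1. With arrays centred 343 rose and 292 fell, in place of 309 and 435. Among subunits 2 rose and 3 fell with arrays centred, and 2 rose and 12 fell at an adjusted p under 0.1. With all rows tested 2 subunits fell, and 3 fell without genes of identical wild-type values. With arrays centred and scaled 0 subunits passed in limma and 27 had an unadjusted p under 0.05, where 3808 of 19938 genes did. Leaving out arrays in turn gave 0 to 3930 rises and 0 to 6069 falls over all genes, and 0 to 17 rises and 0 to 27 falls among subunits.

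The median over subunits was -0.086 and -0.097 without the dimmest 25% and 50%, -0.078 without genes of identical wild-type values, 0.033, 0.025, 0.010 and 0.070 under quantile, loess, centred and centred and scaled arrays, 0 within each date group, and -0.063 to 0 with arrays left out. Over all genes the same 4 scalings gave 0.0097, 0.013, 0.064 and 0.041. Under those 4 scalings complex I gave -0.012, -0.0015, -0.013 and 0.040, complex III -0.018, 0.015, -0.028 and 0.085, and complex IV 0.203, 0.209, 0.141 and 0.255. Complex I was 0 within date group 1 and -0.086 to 0 with arrays left out. Complex II was -0.89 without genes of identical wild-type values, -0.77 and -0.12 within date groups 1 and 2, and -0.74 to -0.11 with arrays left out, where -0.74 is without knockout 5 and -0.11 without knockout 2. Complex III was -0.16 without the dimmest 50%, 0 within date group 2 and -0.10 to 0 with arrays left out. Complex IV was 0.111 with the date group as a block, 0 without the dimmest 50%, 0 within each date group and 0 to 0.085 with arrays left out. Complex V was -0.066 and -0.18 without the dimmest 25% and 50%, 0.068 without genes of identical wild-type values, 0.072 and 0.066 with arrays centred and with arrays centred and scaled, and -0.020 to 0.037 with arrays left out. The cause was not tested. Signal over background was not used, so how well dim subunits were detected is not known.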

Other observations

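Equal values ran across genes as well as across arrays. The share of subunits with exactly the value of some other gene tested on the same array was 28.2% on knockout 2 and 24.7% on knockout 5, against 40%, 42.4% and 45.9% on wild types 3, 4 and 6. Over all genes it was 27.1% and 31.2% on the knockout arrays, against 44.2%, 49.8% and 53.6% on the wild-type arrays. Cox5a, Cox7a1 and Ndufa2, genes on 3 different chromosomes, were all at 4.63 on wild types 3 and 6, with the same value to the last digit given. The deposited values numbered 177780, of which 91606 were distinct.

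Rows of a subunit mostly pointed the same way. Of the 19 subunits with more than 1 row, 2 had rows of both signs, Atp5g2 with changes of 0.087, -0.098 and -0.14, and Cox7a2l with 0.069 and -0.054. Atp5l, subunit g of the ATP synthase, had 6 rows with changes from 0.087 to 0.33. Where the rows lie was not used here.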
